A study of Mus musculus with 214 samples.

Results

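Transcripts of 10 chemokine genes were measured in the livers of young mice injured with N-nitrosodimethylamine (NDMA). The 10 genes were chosen by symbol out of 18647 genes measured in WT and 19540 in Mgmt-/- livers, and all 10 were found for both genotypes. They were taken as 2 interferon-induced genes (Cxcl9 and Cxcl10), 4 genes whose products attract monocytes and neutrophils (Ccl2, Ccl7, Cxcl1 and Ccl6) and 4 others (Cxcl16, Ccl24, Cxcl13 and Cxcl12). All mice had the C57BL/6 background and carried the RaDR and GPT transgenes on both chromosomes of a pair, which the labels write as +/+, so that WT here means RaDR+/+;GPT+/+ and Mgmt-/- means RaDR+/+;GPT+/+;Mgmt-/-. They were injected into the peritoneum on postnatal day 8 with 3.5 mg/kg and on postnatal day 15 with 7 mg/kg NDMA, or with saline. Mice were killed at 5 times after the second injection (on day 1, 2 or 5, in week 10 or in month 10). In this order the livers came from 26, 8, 8, 8 and 13 NDMA and 21, 8, 7, 8 and 10 saline WT mice, and from 12, 8, 8, 8 and 13 NDMA and 12, 7, 6, 8 and 12 saline Mgmt-/- mice. Each library held the RNA of the liver of 1 mouse of either sex. The values are means over all cell types, and fewer cells of a type cannot be told apart from less RNA per cell.

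Chemokines are small secreted proteins that form gradients along which leukocytes that bear the matching receptor move. In the liver they are made by hepatocytes, Kupffer cells (the resident macrophages), stellate cells and the sinusoidal endothelium, and injury brings monocytes, neutrophils and lymphocytes from the blood along them. Cxcl9 and Cxcl10 are induced by interferons and act on Cxcr3, a receptor of activated T cells and NK cells. Ccl2 and Ccl7 act on Ccr2 and draw monocytes out of the blood, and Cxcl1 acts on Cxcr2 and draws neutrophils. NDMA is made reactive by Cyp2e1, an enzyme of hepatocytes around the central vein, and methylates DNA. Mgmt removes methyl groups from guanine.

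Libraries held the 3′ ends of transcripts. Values are normalized read counts, that is, counts divided by 1 size factor per library, set by the authors for each genotype separately. Levels are therefore compared between treatments within a genotype, not between genotypes or between genes. WT libraries held 150038 to 4791649 reads (median 1700411), and Mgmt-/- libraries 713584 to 7740710. The value of 3 reads, up to which a 0 leaves room, was a median of 2.86 normalized counts for WT and 2.60 in Mgmt-/- libraries, and 31.6 in the shallowest WT library. The Mgmt gene had values from 13.0 to 130.0 in WT livers and no more than 9.67 in Mgmt-/- livers, in the direction of the labels. Such limits cover counting error only.

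Several libraries stood apart. In 2 saline Mgmt-/- livers of day 5, Kap, a gene of the kidney, was at over 1000 normalized counts, and both were left out, so that 94 of 96 Mgmt-/- libraries were used. In the kept libraries Kap did not pass 13.9. Among the WT livers of day 1, NDMA replicates D209072 and D209077 had sex genes that went against their labelled sex. They had the lowest Cxcl10 of their group (23.3 and 23.1 against a median of 98.3), and their Cdkn1a, a target of p53, was at 30.3 and 16.3 against a median of 218. The saline WT replicates D209074 (day 1), D215004 (day 2) and D215012 (day 5) had the highest Cxcl9, Cxcl10, Ccl2 and Ccl7 of their groups. Their Cdkn1a was at 359, 212 and 109, against saline medians of 15.1, 16.8 and 9.54. Whether samples or labels were exchanged was not tested, and each of these 5 WT libraries and the Mgmt-/- saline replicate D209090 was left out in turn where its group entered a test other than the sex term.

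The 4 members with the largest folds in Mgmt-/- livers on days 1, 2 and 5 are pairs of neighbours in the genome. On GRCm38, Cxcl9 (chr5:92321347-92328079) and Cxcl10 (chr5:92346638-92348889) lie on the minus strand 18558 bases apart, and Ccl2 (chr11:82035571-82037453) and Ccl7 (chr11:82045712-82047525) lie on the plus strand 8258 bases apart. Of the other members, Cxcl1 (chr5:90891241-90893115), Cxcl13 (chr5:95956951-95961068) and Ccl24 (chr5:135569937-135573049) lie on chromosome 5, Ccl6 (chr11:83587882-83593087) and Cxcl16 (chr11:70453983-70459984) on chromosome 11, and Cxcl12 (chr6:117168535-117181367) on chromosome 6. RefSeq promoters (GRCm38.p6) were matched by symbol for 6 of the 10 members. The 250 bases before the start are shown for the interferon-induced neighbours, to set their motifs side by side, and for Cxcl1, a member with smaller folds. They are Cxcl9 at chr5:92328080-92328329 (minus strand), Cxcl10 at chr5:92348890-92349139 (minus strand) and Cxcl1 at chr5:90890995-90891244 (plus strand). Capitals mark matches to the core of the interferon-stimulated response element (GAAANNGAAA) or to the kappaB consensus, both searched on both strands.
Cxcl9: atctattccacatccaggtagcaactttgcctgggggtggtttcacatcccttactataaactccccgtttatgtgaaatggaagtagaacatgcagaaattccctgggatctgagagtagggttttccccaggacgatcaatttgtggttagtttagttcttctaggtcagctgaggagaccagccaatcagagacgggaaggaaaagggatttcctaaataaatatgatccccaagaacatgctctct
Cxcl10: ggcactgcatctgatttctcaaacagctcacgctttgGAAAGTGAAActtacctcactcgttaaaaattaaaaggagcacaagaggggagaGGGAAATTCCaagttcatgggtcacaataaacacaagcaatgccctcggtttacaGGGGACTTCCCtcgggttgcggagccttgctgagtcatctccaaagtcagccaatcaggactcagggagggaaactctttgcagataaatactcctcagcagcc
Cxcl1: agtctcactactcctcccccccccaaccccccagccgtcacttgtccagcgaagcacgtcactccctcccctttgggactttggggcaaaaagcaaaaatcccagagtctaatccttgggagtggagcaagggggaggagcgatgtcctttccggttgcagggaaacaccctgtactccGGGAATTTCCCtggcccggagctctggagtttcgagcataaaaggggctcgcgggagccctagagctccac
Cxcl10 held a match to GAAANNGAAA from 213 to 204 bases before the start, and kappaB matches from 159 to 150 and, overlapping and on both strands, from 104 to 94. Cxcl1 held overlapping kappaB matches on both strands from 71 to 61 bases before the start. Cxcl9 held neither, and no promoter shown held the gamma-activated sequence TTCNNNGAA. Of 32851 promoter windows of this length, 2.98% held GAAANNGAAA, 7.02% held TTCNNNGAA and 7.25% held the kappaB consensus. These matches are letters in a window, with no measure of binding. Ccl6, Cxcl13 and Cxcl12 had no match to the 3 motifs, and Ccl2, Ccl7, Cxcl16 and Ccl24 are named only.

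NDMA was compared with saline by limma on log2(value + 1) for genes with a mean of at least 5, with sex as a term and library batch as another where the design allowed it. A gene was called when its Benjamini-Hochberg adjusted p was under 0.05 and its absolute log2 fold change over 0.58. Folds on this scale understate the change of low genes. Each time used its own mice. Values are given as lowest, median and highest in a group, and errors are standard errors.

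The chemokine response was large in both genotypes in the first days and was still called at the late times in Mgmt-/- livers. Of the 9 members tested at each time in Mgmt-/- livers, 7 rose and 1 fell on day 1, 8 rose and 1 fell on each of days 2 and 5, 4 rose in week 10 and 5 in month 10. The 9 were not always the same, since Cxcl13 was under the filter on days 1, 2 and 5, and Ccl7 in week 10 and month 10. In WT livers Cxcl13 was under it on the same days, Ccl7 from day 5 on and Ccl2 in month 10. Counts and medians of early and late times therefore cover different genes. A member near 0 in saline livers, such as Ccl7, can pass the filter only through the NDMA livers. Among all genes tested in Mgmt-/- livers, the share called higher was 9.06% on day 1, 12.4% on day 2, 11.1% on day 5, 7.27% in week 10 and 4.75% in month 10, and the share called lower was 8.64%, 7.5%, 6.71%, 3.88% and 2.99%. In WT livers 6 of 9 members rose and 1 fell on day 1, 5 of 9 rose and 1 fell on day 2, and 3 of 8 rose on day 5. No member was called in WT livers by limma, edgeR or DESeq2 in week 10 (2 of 9 with an unadjusted limma p under 0.05) or month 10 (1 of 8). Among all genes tested in WT livers, the share called higher was 5.01%, 3.33%, 2.22%, 0.0249% and 0% in order of time, and the share called lower was 4.19%, 2.91%, 1.39%, 0% and 0%. The median log2 fold change of the tested members in Mgmt-/- livers was 1.60, 2.30, 2.62, 0.90 and 1.08 in order of time, where the median of all genes was 0.02, 0.03, 0.03, 0.04 and -0.01. In WT livers the medians were 1.12, 1.30, 1.10, -0.34 and 0.41, where those of all genes were -0.03, -0.08, -0.07, -0.03 and -0.06.

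**Figure D1:**
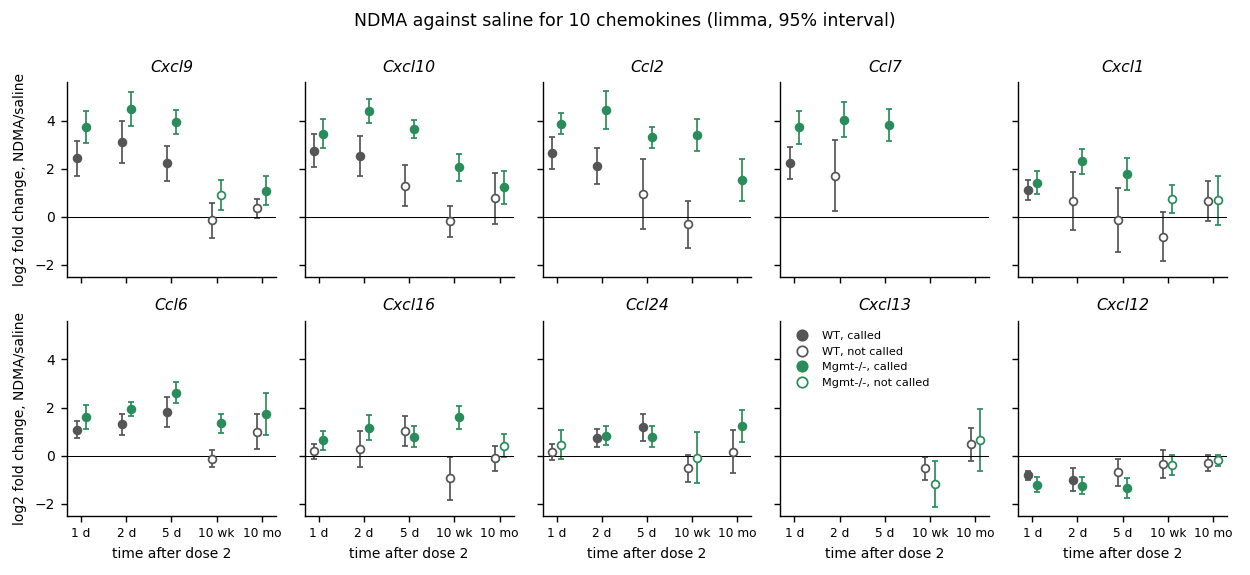
Log2 fold change of NDMA against saline (limma, vertical axis) for the 10 chemokines by time after the second dose (horizontal axis), with WT in grey and Mgmt-/- in green, bars for the 95% interval, filled points for called genes and no point where a gene was under the filter. In Mgmt-/- livers Ccl2 was at 3.42 in week 10, while Cxcl9 went from 3.95 on day 5 to 0.90.

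Cxcl9 and Cxcl10, the interferon-induced pair, were among the most induced genes of the Mgmt-/- liver. On day 1 Cxcl9 was at 5.01, 12.4 and 123 in Mgmt-/- saline livers and at 111, 222 and 418 in NDMA livers. The saline liver D209090 reached into the NDMA range, and 10 of 12 NDMA livers lay above all saline livers. On day 2 it was at 6.35, 11.2 and 35.6 in saline and 174, 278 and 482 in NDMA livers, and on day 5 at 10.2, 20.4 and 30.7 and 211, 301 and 468. The groups did not overlap on day 2 or day 5. Cxcl9 rose 13.2-fold on day 1 (log2 fold change 3.73 ± 0.33, adjusted p = 7.13e-09), 22.0-fold on day 2 (4.46 ± 0.33, adjusted p = 7.41e-08) and 15.5-fold on day 5 (3.95 ± 0.24, adjusted p = 5.12e-10). On day 2 its fold ranked 8 of 9469 genes tested. Within library batches on day 1, the log2 fold change of Cxcl9 was 4.31 in batch 191212Eng (16 livers, adjusted p = 2.21e-13) and 2.57 in batch 200803Eng (8 livers, D209090 among them), where it was not called by limma (adjusted p = 0.0893).

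In week 10 the Cxcl9 groups overlapped, with Mgmt-/- saline livers at 17.2, 48.6 and 75.6 and NDMA livers at 46.0, 68.0 and 214. The log2 fold change was not called by limma (0.90 ± 0.31, adjusted p = 0.0613), though edgeR (0.98, adjusted p = 0.0405) and DESeq2 (1.01, adjusted p = 0.0272) called it. In month 10 saline livers were at 11.7, 48.4 and 113 and NDMA livers at 41.6, 81.3 and 254, with wide overlap, and Cxcl9 was called 2.11-fold higher (1.08 ± 0.29, adjusted p = 0.0153).

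Cxcl10 in Mgmt-/- saline livers was at 3.38, 14.1 and 59.5 on day 1, at 3.44, 9.26 and 14.6 on day 2 and at 8.22, 13.6 and 16.5 on day 5. In NDMA livers it was at 84.3, 156 and 309, then at 156, 189 and 295 and then at 126, 165 and 279. Every NDMA liver lay above every saline liver on these 3 days. Cxcl10 rose 10.9-fold on day 1 (log2 3.45 ± 0.29, adjusted p = 8.48e-10), 21.2-fold on day 2 (4.40 ± 0.24, adjusted p = 6.93e-12) and 12.5-fold on day 5 (3.64 ± 0.19, adjusted p = 5.41e-13). Unlike Cxcl9 it was called by limma in week 10, where saline livers were at 8.48, 14.3 and 33.8 and NDMA livers at 28.6, 74.0 and 91.2, a 4.18-fold rise (2.06 ± 0.27, adjusted p = 1.10e-05). Within batches on day 1 it was at 3.95 and 2.46, called in both. In week 10 7 of 8 NDMA livers lay above all saline livers. In month 10 saline livers were at 1.59, 8.53 and 21.7 and NDMA livers at 5.31, 18.2 and 51.0, a 2.33-fold rise (1.22 ± 0.34, adjusted p = 0.0176) with 5 of 13 NDMA livers above all saline livers.

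In WT livers of day 1, Cxcl9 was at 2.27, 15.9 and 289 in saline and 12.2, 92.3 and 301 in NDMA livers. Cxcl10 was at 0, 12.7 and 208 in saline and 23.1, 98.3 and 232 in NDMA livers. The highest saline liver for both was D209074, and the next highest were at 67.1 and 38.8. Cxcl9 rose 5.40-fold (2.43 ± 0.36, adjusted p = 1.76e-06) and Cxcl10 6.71-fold (2.75 ± 0.33, adjusted p = 3.74e-08). On day 2 Cxcl9 was at 9.01, 15.1 and 162 in saline and 133, 169 and 326 in NDMA livers, an 8.58-fold rise (3.10 ± 0.41, adjusted p = 3.26e-04). Cxcl10 was at 13.0, 24.5 and 259 in saline and 119.6, 183 and 299 in NDMA livers, a 5.70-fold rise (2.51 ± 0.39, adjusted p = 9.91e-04). For both, the NDMA livers lay above all saline livers but D215004.

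On day 5 Cxcl9 of WT livers was at 4.07, 14.0 and 53.6 in saline and 22.5, 83.3 and 139 in NDMA livers, a 4.66-fold rise (2.22 ± 0.34, adjusted p = 0.00273). Cxcl10, at 8.48, 26.8 and 88.9 in saline and 16.4, 60.5 and 149 in NDMA livers, was not called by limma (1.29 ± 0.41, adjusted p = 0.0894). It was called by edgeR (1.45, adjusted p = 0.00333) and DESeq2 (1.43, adjusted p = 8.89e-04), and by limma without saline replicate D215012 (1.52, adjusted p = 0.0226) and without NDMA replicate D215014, a library of 202626 reads (1.66, adjusted p = 2.74e-04).

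**Figure D2:**
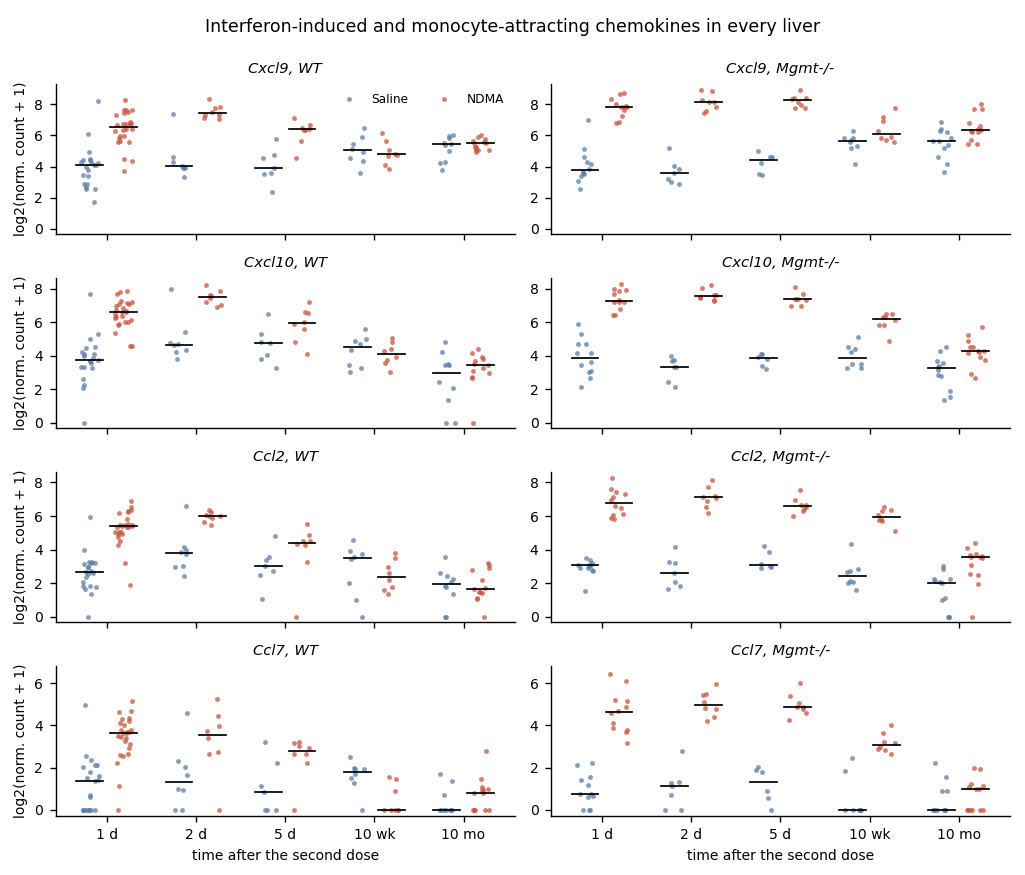
Cxcl9, Cxcl10, Ccl2 and Ccl7 in each liver as log2(normalized count + 1) (vertical axis) by time after the second dose (horizontal axis), with WT in the left and Mgmt-/- in the right panels, saline in blue, NDMA in red, 1 point per mouse and a line at each median. In Mgmt-/- livers Cxcl10, Ccl2 and Ccl7 of NDMA mice lay above those of every saline mouse on days 1, 2 and 5.

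The WT rise on day 1 was examined within each library batch that held both treatments. In batches 191212Eng (16 livers) and 210901Eng (21 livers) 7 members were called, as over all batches, with log2 fold changes of 2.85 and 3.59 for Cxcl10, 3.57 and 2.34 for Cxcl9 and 3.29 and 2.97 for Ccl2. In batch 200803Eng (10 livers), which held D209072, D209077 and D209074, no member was called by limma, with 0.73 for Cxcl10 and 0.66 for Cxcl9. Without D209072 and D209077 both were at 1.62 there and again none was called. In WT livers of day 2, day 5 and week 10, batch and sex are the same split and cannot be told apart.

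Ccl2 and Ccl7, which draw monocytes through Ccr2, rose with the interferon-induced pair. Ccl2 in Mgmt-/- saline livers was at 1.94, 7.41 and 10.1 on day 1, 2.20, 5.14 and 16.7 on day 2 and 6.60, 7.54 and 17.3 on day 5. In NDMA livers it was at 56.2, 109.6 and 302, then at 70.7, 137 and 287 and then at 63.2, 97.6 and 188. The groups did not overlap on these days. The rise was 14.7-fold on day 1 (3.87 ± 0.22, adjusted p = 3.44e-16), 21.7-fold on day 2 (4.44 ± 0.37, adjusted p = 1.54e-07) and 9.84-fold on day 5 (3.30 ± 0.22, adjusted p = 4.55e-11).

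In week 10 Ccl2 was at 2.04, 4.40 and 19.6 in Mgmt-/- saline and at 33.8, 60.8 and 93.5 in NDMA livers. All 8 NDMA livers still lay above all saline livers. The 10.7-fold rise (3.42 ± 0.32, adjusted p = 8.66e-08) ranked 32 of 9681 genes, against 152 for Cxcl10. In month 10 it was at 0, 3.07 and 7.24 in saline and at 0, 10.6 and 20.3 in NDMA livers, a 2.88-fold rise (1.53 ± 0.42, adjusted p = 0.0184) with 9 of 13 NDMA livers above all saline livers.

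Ccl7 was near 0 in Mgmt-/- saline livers, at 0, 0.671 and 3.72 on day 1, and at 7.94, 24.1 and 85.5 in NDMA livers. It rose 13.1-fold on day 1 (3.71 ± 0.34, adjusted p = 1.02e-10), 16.4-fold on day 2 (4.04 ± 0.35, adjusted p = 1.74e-09) and 13.9-fold on day 5 (3.80 ± 0.32, adjusted p = 2.98e-09), and every NDMA liver lay above every saline liver on each day. In week 10 its mean was under the 5 needed for the test, with saline livers at 0, 0 and 4.53 and NDMA livers at 5.28, 7.42 and 15.0. These groups did not overlap, and with no filter on low values the log2 fold change was 2.63 ± 0.39 (limma, adjusted p = 7.66e-05). In month 10 it was at 0, 0 and 3.70 in saline and at 0, 0.951 and 2.90 in NDMA livers.

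In WT livers of day 1, Ccl2 was at 0, 5.28 and 60.9 in saline and 2.72, 40.9 and 120.3 in NDMA livers, a 6.24-fold rise (2.64 ± 0.32, adjusted p = 3.66e-08). Ccl7 rose 4.71-fold (2.24 ± 0.32, adjusted p = 4.57e-07). On day 2 Ccl2 was at 4.33, 13.0 and 96.6 in saline and 43.1, 63.7 and 80.1 in NDMA livers, a 4.29-fold rise (2.10 ± 0.36, adjusted p = 0.00154). All NDMA livers lay above all saline livers but D215004. Ccl7 was not called by limma on day 2 (1.71 ± 0.71, adjusted p = 0.162), but was by edgeR (2.18, adjusted p = 0.0281), and by limma without D215004 (2.17, adjusted p = 0.0346) and without NDMA replicate D215006, a library of 150038 reads (2.22, adjusted p = 0.00593). On day 5 Ccl2 was at 1.06, 7.15 and 26.8 in saline and 0, 20.4 and 45.5 in NDMA livers and was not called by limma (0.94 ± 0.69, adjusted p = 0.509), while edgeR (1.46, adjusted p = 0.0153) and DESeq2 (1.46, adjusted p = 0.0103) called it. The 0 was the shallow D215014, without which limma called Ccl2 too (1.63, adjusted p = 0.00416). In week 10 it was at 0, 10.4 and 22.8 in saline and 1.53, 4.27 and 12.7 in NDMA livers, a log2 fold change of -0.31 ± 0.47 with a 95% interval from -1.30 to 0.67.

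Cxcl1, the neutrophil attractant, had smaller folds than Ccl2. In Mgmt-/- livers its median went from 17.5 to 46.1 on day 1, from 8.59 to 55.0 on day 2 and from 9.46 to 33.5 on day 5. These were rises of 2.65-fold (1.41 ± 0.24, adjusted p = 1.57e-05), 4.91-fold (2.30 ± 0.25, adjusted p = 5.80e-08) and 3.46-fold (1.79 ± 0.32, adjusted p = 2.38e-04). The groups were separate on day 2 and overlapped on days 1 and 5. It was not called in week 10 (0.73 ± 0.28, adjusted p = 0.0922) or month 10 (0.68 ± 0.49, adjusted p = 0.433). In week 10 limma called it without saline replicate D209003, the highest of its group (0.93, adjusted p = 0.0157), and with equal totals (0.94, adjusted p = 0.0171). In WT livers it rose on day 1 (1.12 ± 0.21, adjusted p = 3.25e-05) and was not called later, though on day 2 it was without D215006 (1.21, adjusted p = 0.00707).

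Ccl6, a chemokine of myeloid cells, was called at all 5 times in Mgmt-/- livers. On day 5 saline livers were at 40.9, 66.1 and 102 and NDMA livers at 284, 398 and 625, a 6.17-fold rise (2.62 ± 0.20, adjusted p = 1.28e-08). In week 10 saline livers were at 27.1, 66.6 and 87.7 and NDMA livers at 88.3, 168 and 216 (1.35 ± 0.20, adjusted p = 3.49e-05). The groups did not overlap on day 2, on day 5 or in week 10. Its log2 fold change was 1.60 ± 0.25 on day 1, 1.93 ± 0.14 on day 2 and 1.73 ± 0.42 in month 10. In WT livers it rose by 1.08 ± 0.18, 1.30 ± 0.21 and 1.82 ± 0.30 on days 1, 2 and 5, and was not called in week 10 (-0.13 ± 0.17, 95% interval from -0.49 to 0.23).

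Cxcl16, a membrane-bound ligand of Cxcr6 on T and NKT cells, rose in Mgmt-/- livers by 0.63 ± 0.20, 1.16 ± 0.25 and 0.79 ± 0.20 on the 3 early days. Without D389010, D389082 or D389094 the value on day 1 was 0.58, 0.55 or 0.55, with an adjusted p under 0.05 but a fold short of the threshold. In batch 200803Eng alone it was 0.42 (adjusted p = 0.59). In Mgmt-/- livers of week 10 it was at 5.66, 8.48 and 13.6 in saline and 20.0, 27.8 and 42.2 in NDMA livers, without overlap (1.59 ± 0.23, adjusted p = 3.94e-05). In WT livers of day 5 Cxcl16 had a median of 8.23 in saline and 19.3 in NDMA livers, with overlap, and was not called by limma (1.03 ± 0.30, adjusted p = 0.0565). It was called there by edgeR (1.09, adjusted p = 0.02) and DESeq2 (1.10, adjusted p = 0.0168), and by limma without D215012 (1.11, adjusted p = 0.0324), D215013 (1.16, adjusted p = 0.0362) or D215014 (1.07, adjusted p = 0.0188). At the other times limma did not call it in WT livers. Ccl24, an attractant of eosinophils through Ccr3, rose in Mgmt-/- livers by 0.83 ± 0.20 on day 2, 0.78 ± 0.21 on day 5 and 1.23 ± 0.33 in month 10, and in WT livers by 0.73 ± 0.19 on day 2 and 1.18 ± 0.27 on day 5. The WT call on day 2 was lost without D215002 (0.66, adjusted p = 0.053), and that on day 5 without D202009 (1.03, adjusted p = 0.062) or D202010 (1.11, adjusted p = 0.0561), with values close to those of all livers. Cxcl13, which draws B cells through Cxcr5, was under the filter in the first days. In Mgmt-/- livers of week 10 it was at 2.09, 16.4 and 75.6 in saline and 2.30, 11.4 and 24.7 in NDMA livers and was not called by limma (-1.19 ± 0.46, adjusted p = 0.105). EdgeR called it lower there (-1.29, adjusted p = 0.0437), as did limma without saline replicate D209001 (-1.49, adjusted p = 0.0175).

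Cxcl12 was the member that limma called lower. It acts on Cxcr4, and stromal and endothelial cells make it without injury. In Mgmt-/- saline livers it was at 189.8, 279.6 and 542 on day 1, 201, 274 and 456 on day 2 and 246, 290.5 and 471 on day 5. In NDMA livers it was at 80.5, 134 and 181, then 74.4, 121 and 154 and then 78.3, 131 and 182. Every NDMA liver lay below every saline liver on each day. The fall was 2.30-fold (log2 -1.20 ± 0.15, adjusted p = 4.00e-08), 2.37-fold (-1.25 ± 0.17, adjusted p = 6.14e-06) and 2.53-fold (-1.34 ± 0.20, adjusted p = 6.58e-05). In WT livers it fell 1.77-fold on day 1 (-0.82 ± 0.10, adjusted p = 9.18e-09) and 1.99-fold on day 2 (limma, adjusted p = 0.0105), and was not called by limma on day 5 (-0.70 ± 0.27, adjusted p = 0.157), though it was by DESeq2 (-0.65, adjusted p = 0.0475). In neither genotype did limma call it in week 10 or month 10.

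**Figure D3:**
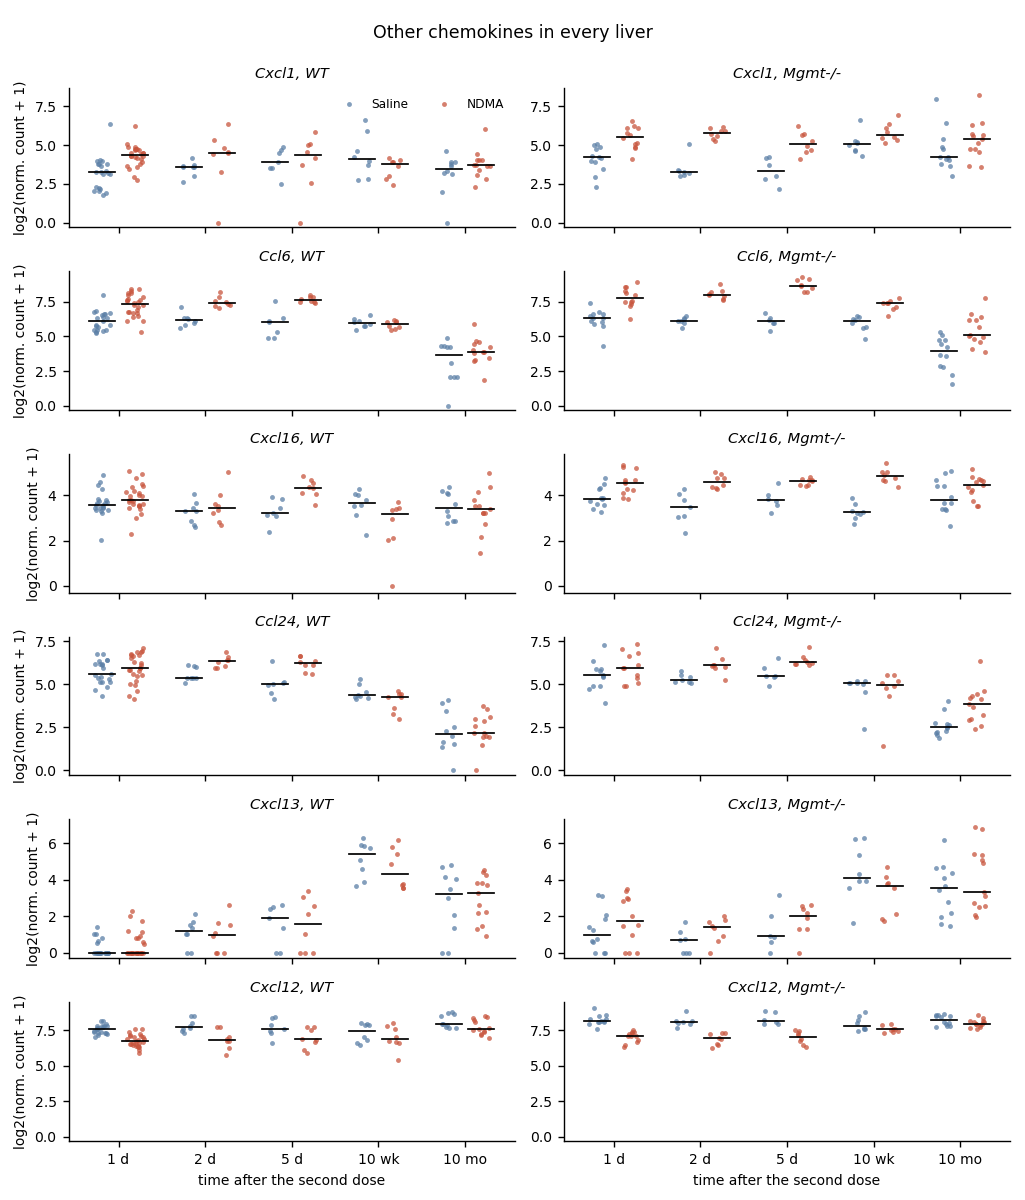
Cxcl1, Ccl6, Cxcl16, Ccl24, Cxcl13 and Cxcl12 in each liver as log2(normalized count + 1) (vertical axis) by time after the second dose (horizontal axis), with WT in the left and Mgmt-/- in the right panels, saline in blue, NDMA in red, 1 point per mouse and a line at each median. Cxcl12 of Mgmt-/- NDMA livers lay below that of every saline liver on days 1, 2 and 5.

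Whether the response differed between genotypes was tested as a genotype by treatment term with edgeR's quasi-likelihood test on whole reads. The test used 70 livers on day 1 and 28 on day 2, since 4 libraries were left out of tests on reads. A positive value is a larger log2 response in Mgmt-/- livers. By this test 0 of 9 members were called on day 1 (4 with an unadjusted p under 0.05, 0.00944% of all genes called) and 0 of 8 in month 10 (3 unadjusted, 1.52% of all genes), and DESeq2 size factors gave 0 at both times. On day 2, with 4.02% of all genes called, Cxcl10 differed by 2.26 ± 0.62, adjusted p = 0.0392, and Ccl2 by 2.65 ± 0.69, adjusted p = 0.0335. Without the saline WT replicate D215004 both stayed called with smaller values, Cxcl10 at 1.34, adjusted p = 0.0154, and Ccl2 at 2.05, adjusted p = 0.0429. Without libraries under 300000 reads Cxcl10 was not called (2.16, adjusted p = 0.0508). On day 5, with 2.42%, Cxcl9 differed by 1.76 ± 0.43, adjusted p = 0.0211, Cxcl10 by 2.19 ± 0.38, adjusted p = 4.46e-04, and Ccl2 by 1.90 ± 0.47, adjusted p = 0.0162. Without the saline WT replicate D215012 the 3 stayed called, Cxcl9 at 1.48, adjusted p = 0.0334, Cxcl10 at 1.88, adjusted p = 4.71e-04, and Ccl2 at 1.59, adjusted p = 0.0454. With the 2 livers of high Kap put back, the values of Cxcl9 (2.22, adjusted p = 0.151) and Ccl2 (2.41, adjusted p = 0.104) were larger but not called. In week 10, with 6.8%, Ccl2 differed by 4.17 ± 0.56, adjusted p = 1.60e-06, Cxcl16 by 2.42 ± 0.44, adjusted p = 2.82e-04, Cxcl10 by 2.29 ± 0.42, adjusted p = 2.41e-04, and Ccl6 by 1.55 ± 0.26, adjusted p = 8.24e-05. With DESeq2 size factors Cxcl1 was called too (2.03, adjusted p = 0.047). These terms also hold the WT responses, which by limma were below 0 in week 10 and not called. They were -0.95 ± 0.43 for Cxcl16, -0.84 ± 0.49 for Cxcl1, -0.31 for Ccl2, -0.19 for Cxcl10 and -0.13 for Ccl6. No library batch held both genotypes on day 2, on day 5 or in week 10, so that batch and genotype cannot be told apart there.

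Changes of the response between successive times were tested with limma over all livers of a genotype, so that neighbouring contrasts share groups. From day 5 to week 10 in Mgmt-/- livers (3.54% of all genes called), the response of Cxcl9 became smaller (log2 -3.05 ± 0.55, adjusted p = 9.41e-05) and the fall of Cxcl12 became smaller (0.95, adjusted p = 0.0222). The term for Cxcl10 was also below 0 but was not called (-1.58 ± 0.51, adjusted p = 0.0634). It was called with a pseudocount of 5 (adjusted p = 0.013) and with all libraries kept (adjusted p = 0.00568). The response of Ccl2 was not called between these times (0.12 ± 0.58, adjusted p = 0.962). Of the 10 members 5 had an unadjusted p under 0.05 by limma. Besides Cxcl9, Cxcl12 and Cxcl10 these were Ccl6 (-1.28) and, with a larger response in week 10, Cxcl16 (0.80), both not called. From week 10 to month 10 (1.06% of all genes) the responses of Ccl2 (-1.87, adjusted p = 0.042), Ccl7 (-2.38, adjusted p = 0.00548) and Cxcl16 (-1.19, adjusted p = 0.0393) became smaller. The call of Ccl2 was lost with a pseudocount of 0.5 (-1.75, adjusted p = 0.161), and those of Ccl2 and Cxcl16 without covariates (-1.87, adjusted p = 0.057, and -1.20, adjusted p = 0.057) and with all libraries kept (-1.87, adjusted p = 0.127, and -1.19, adjusted p = 0.0785). The Cxcl12 call between day 5 and week 10 was lost with all libraries kept (0.78, adjusted p = 0.062). By limma 0 members were called between days 1 and 2 (0.0198% of all genes, 1 member with an unadjusted p under 0.05) and 0 between days 2 and 5 (0.00991%, 0 members). In WT livers the responses of Ccl6 (-1.97, adjusted p = 0.0326) and Cxcl16 (-2.01, adjusted p = 0.0102) became smaller from day 5 to week 10 (1.01% of all genes). Without D215012 Cxcl9 (-2.59, adjusted p = 0.0216), Ccl7 (-2.90, adjusted p = 0.0214) and Ccl24 (-1.91, adjusted p = 0.0178) were called too. Without covariates neither Ccl6 nor Cxcl16 was called (-1.92, adjusted p = 0.107, and -1.97, adjusted p = 0.0576), nor was Ccl6 with a pseudocount of 0.5 (-1.98, adjusted p = 0.0547). In WT livers 0 members were called by limma between days 1 and 2 (1.76% of all genes, 0 members unadjusted), days 2 and 5 (0.022%, 0 members) and week 10 and month 10 (0%, 3 members).

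A sex by treatment term was tested by limma for each genotype and time. It was called for Ccl6 in Mgmt-/- livers of month 10 (0.338% of all genes), with a larger response in males (2.97, adjusted p = 0.0342). Males were at 1.94, 5.86 and 11.3 in saline (n = 5) and 26.7, 60.4 and 214 in NDMA livers (n = 6), without overlap. Females were at 11.1, 25.1 and 38.8 in saline (n = 7) and 13.9, 30.0 and 82.2 in NDMA livers (n = 7). In Mgmt-/- livers of month 10, 4 of 9 members tested had an unadjusted p under 0.05. The others were Cxcl16 (1.43), Ccl2 (1.92) and Cxcl10 (1.38), also larger in males and not called. Ccl2 of males was at 0, 1.17 and 6.08 in saline and 10.6, 11.4 and 20.3 in NDMA livers. In females it was at 0, 3.34 and 7.24 in saline and 0, 4.84 and 12.6 in NDMA livers. For the other genotypes and times 0 members were called by limma, with 0 to 3 of them at an unadjusted p under 0.05. With 8 or fewer livers a treatment this term has little power, so that a missed call does not show like responses. The share of all genes called was 0% in WT livers at each time and in Mgmt-/- livers on days 1, 2 and 5, and 0.114% in Mgmt-/- livers of week 10.

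Other ligands, receptors and pathway genes were taken from fixed lists. A ligand that is low in saline livers, such as Xcl1 or Cxcl14, can pass the filter only through the NDMA livers. The counts of those tested therefore lean towards ligands that rose. Of 11 other CXC, CX3C and XC ligands, 3 or 4 passed the filter at each time in Mgmt-/- livers. Xcl1, a ligand of T and NK cells, rose 9.86-fold on day 5, from a median of 2.00 to 26.8, without overlap. Cxcl14 was at 0 in all 6 saline livers of day 5 and rose 34.0-fold in week 10 (limma, adjusted p = 8.48e-10), with saline livers at 0, 2.06 and 6.04 and NDMA livers at 61.5, 92.2 and 148. The platelet chemokines Pf4 (-0.66) and Ppbp (-1.41) fell on day 5, while Pf4 rose 2.83-fold in week 10, and Pf4 (1.17), Ppbp (1.41) and Cxcl14 (2.63) rose in month 10. Of 16 other CC ligands, 7 were tested on day 5, of which Ccl4 (3.45), Ccl5 (2.69), Ccl12 (2.94) and Ccl8 rose and Ccl27a (-0.87) fell. Ccl4 and Ccl5, attractants of T cells and macrophages, were the 2 of 5 tested that rose in week 10 (1.60 and 1.55). In WT livers Xcl1 rose on days 1, 2 and 5, Ccl4 on days 1 and 2, Ccl12 on day 1, Ccl9 on day 2 and Ccl5 and Pf4 on day 5, Ccl27a fell on day 1, and no gene of either list was called by limma in week 10 or month 10.

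Chemokine receptors were low, and a receptor that is high in NDMA livers alone can pass the filter only through them. Of 19 receptors in Mgmt-/- livers, 2 of 4 tested rose on day 1, 5 of 6 on day 2, 8 of 8 on day 5, 3 of 3 in week 10 and 1 of 2 in month 10, and none fell by limma. Ccr2, on monocytes, went from a median of 3.76 to 25.1 on day 5 (4.97-fold, limma adjusted p = 4.27e-07) and from 1.23 to 13.8 in week 10 (6.64-fold, adjusted p = 1.90e-04), without overlap. Ccr1 rose 8.42-fold on day 5, and Ccrl2 (1.98-fold), Cxcr3 and Cxcr6 were among the others that rose. Of the 4 atypical receptors, which take up chemokines without signalling through G proteins, at most 2 were tested and none was called. In WT livers 2 of 3 tested receptors rose on day 1 (Ccr2 and Ccrl2) and none was called later.

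Among genes of the interferon gamma pathway, the transcription factors Irf1 and Irf8 rose on each of the 3 early days in Mgmt-/- livers. On day 5 Irf1 went from a median of 46.3 to 145 (2.94-fold, limma adjusted p = 4.86e-08), without overlap, and Irf8 rose 3.77-fold. In week 10 Irf1 (0.17, adjusted p = 0.63) was not called by limma, and Irf8 (1.49) and Ifngr1 (0.65), a chain of the receptor, rose. In WT livers Irf1 and Irf8 rose on day 1, and Ifngr1 fell on day 2. Of 13 NF-kB pathway genes, Il1r1 fell on days 1 and 2, Il1a and Nfkbia rose on day 2, Il1a (1.18) on day 5 and Nfkbia in month 10 in Mgmt-/- livers, and 0 of 7 tested was called in week 10 by limma.

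In the same livers the markers of some cell types were higher and those of others lower. Of 12 T and NK cell markers 6 passed the filter in Mgmt-/- livers of day 5, and since low markers can pass through the NDMA livers alone, the level is given as the sum over all 12. It was 40.7, 59.7 and 71.8 in saline and 216, 385 and 519.8 in NDMA livers on day 2, and on day 5 it was 31.2, 44.4 and 52.2 in saline and 280.4, 400.2 and 629.9 in NDMA livers, with Gzma the most abundant (median 119 in NDMA livers). In week 10 the sum was 4.18, 25.0 and 39.2 in saline and 27.7, 48.2 and 81.9 in NDMA livers, when Nkg7 was called higher. In WT livers of day 2 it was 42.3, 66.1 and 166 in saline and 112, 155 and 252 in NDMA livers. Of 10 monocyte and macrophage markers, 7 of 9 tested rose on day 5 and 6 of 8 in week 10 in Mgmt-/- livers, against 1 of 8 and 0 of 8 in WT livers. On day 1 it was 3 of 9 in Mgmt-/- and 5 of 9 in WT livers, and Csf1r of this list fell in both genotypes. On day 2 it was 7 of 9 and 3 of 9. The difference between genotypes was not tested for these markers. Their sum in Mgmt-/- livers of week 10 was 174, 453 and 694 in saline and 994, 1314 and 1531 in NDMA livers, with Lyz2 the most abundant (medians 228 and 793). Cd14 rose 13.7-fold there. Of 8 Kupffer cell markers in Mgmt-/- livers, Marco (1.94) and Cd5l (1.82) rose on day 5 and the other 6 were not called, with a median log2 fold change over the 8 of -0.28. On day 1 Marco rose and 4 of 8 (C6, Cd163, Clec4f and Vsig4) fell, with a median of -0.65. On day 5 the sum was 553, 695 and 1189 in saline and 989.7, 1211 and 1401 in NDMA livers, with Cd5l, which rose, the most abundant marker.

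Of 10 neutrophil markers, 4 of 7 tested fell in Mgmt-/- livers on day 1, and on day 2, when the fold of Cxcl1 was largest, 3 of 6 fell (Camp, Ngp and S100a9) and 1 of 6 rose (Ltf). Of those tested on day 5, 5 of 6 fell, among them Camp (24.2-fold) and S100a8 (3.63-fold), the most abundant. Their sum was 234, 339.7 and 964 in saline and 64.6, 81.8 and 97.4 in NDMA livers. In week 10 Camp (2.16) and Ngp (2.46) rose, and the sum was 32.4, 79.1 and 546 in saline and 101, 196 and 763 in NDMA livers. Ly6g and Mpo were at 0 in every saline liver of week 10. Of 5 eosinophil markers, Prg2 fell on days 1 and 2 and 29.1-fold on day 5, and Ear2 rose (1.53) on day 5, when Ccl24 was higher, and Epx was at 0 in all NDMA livers. Their sum was 19.1, 50.8 and 117 in saline and 6.58, 9.87 and 15.9 in NDMA livers.

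Of 5 hepatocyte markers 3 of 5 tested fell in Mgmt-/- livers on day 1 (Alb, Apoa1 and Serpina1c, median over the 5 of -0.80), 3 of 5 on day 2 (Alb, Serpina1c and Ttr, median -0.69) and 1 of 5 on day 5 (Serpina1c, -0.73). Their sum was 318790, 362767 and 402555 in saline and 199594, 241145 and 266146 in NDMA livers on day 2. On day 5 it was 316858, 343817 and 427176 in saline and 224018, 257072 and 279534 in NDMA livers, with Alb the most abundant. Over both genotypes the lowest sum in any liver used was 79369, so the defining markers of liver were present in every group. Of 7 B and plasma cell markers 0 of 2 tested was called by limma on day 5, and the sum was 20.0, 23.3 and 49.4 in saline and 15.9, 22.8 and 28.2 in NDMA livers. Of 7 dendritic cell markers none passed the filter that day, with sums of 7.07, 8.61 and 15.3 and 10.7, 22.9 and 29.3. On day 1, when Cxcl12 fell, 5 of 7 sinusoidal endothelial markers fell in Mgmt-/- livers (Clec4g, Dnase1l3, Fcgr2b, Kdr and Stab2, median over the 7 of -0.73) and Lyve1 rose, and 3 of 7 stellate cell and fibroblast markers tested fell (Col3a1, Lrat and Reln) and Acta2 rose. On day 2, when Cxcl12 was also lower, 1 of 7 sinusoidal markers fell (Stab2) and 2 of 7 rose (Lyve1 and Pecam1), with a median of -0.05. Of the stellate cell and fibroblast markers, 3 of 7 tested fell that day (Col3a1, Lrat and Reln) and Acta2 rose, with a median of -0.40. On day 5 Acta2 rose (1.45) and Col3a1 (-0.83), Pdgfrb and Reln (-1.51) fell, and among the sinusoidal endothelial markers Lyve1 rose (0.77) and Clec4g (-0.74) and Stab2 (-1.13) fell. In week 10, 3 of 7 stellate cell and fibroblast markers tested rose (Acta2, Col1a1 and Col3a1) and 0 fell, with a median of 1.18. Spp1, the most abundant of 6 cholangiocyte markers, fell on day 5 (-1.41) and rose in week 10 (3.13). No kidney marker passed the filter in the kept livers. The part of these cell types in the chemokine values was not tested.

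**Figure D4:**
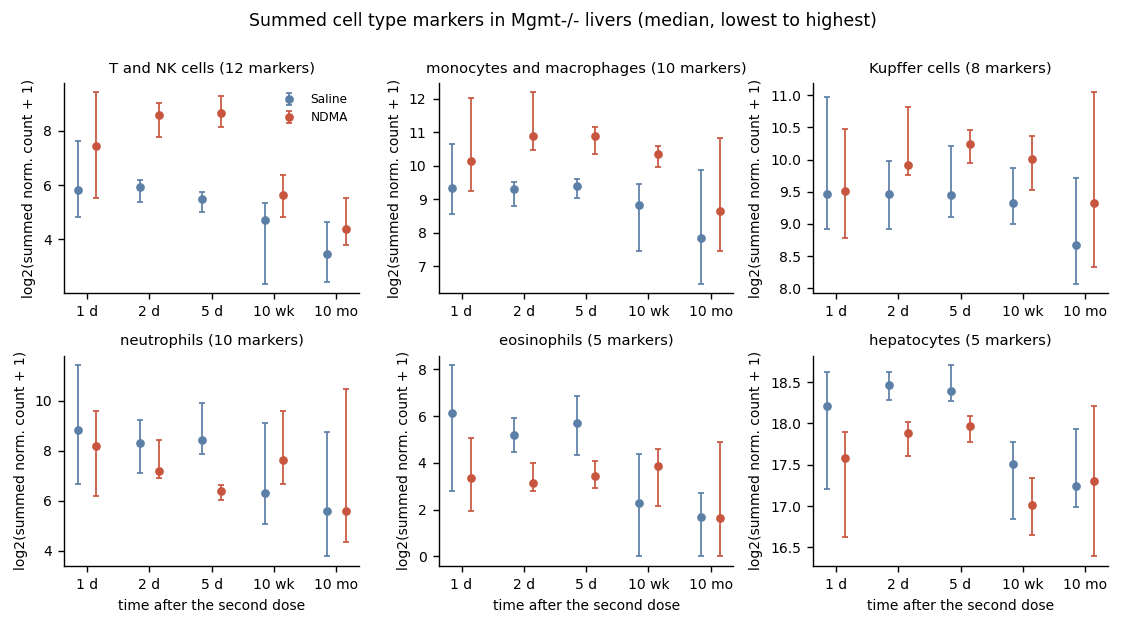
Summed markers of 6 cell types in Mgmt-/- livers as log2(summed normalized count + 1) (vertical axis) by time after the second dose (horizontal axis), with points at the median and bars from the lowest to the highest liver, saline in blue and NDMA in red. On day 5 the T and NK cell sums of NDMA livers (280.4 to 629.9) lay above, and the neutrophil sums (64.6 to 97.4) below, those of every saline liver.

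Within groups of Mgmt-/- livers, pairs of members varied together to unequal degrees. Correlations were taken over 94 livers after the mean of each group had been subtracted, and are descriptions, since livers share batches and differ in depth. Pearson's r was 0.56 for Cxcl9 and Cxcl10, 0.56 for Ccl6 and Ccl24, 0.49 for Cxcl9 and Cxcl16, 0.41 for Ccl2 and Cxcl10, 0.26 for the neighbours Ccl2 and Ccl7, and 0.15 for Cxcl9 and Ccl2. Over 117 WT livers, the libraries that stood apart included, r was 0.56 for Cxcl9 and Cxcl10, 0.49 for Ccl6 and Ccl24, 0.17 for Cxcl9 and Cxcl16, 0.69 for Ccl2 and Cxcl10, 0.51 for Ccl2 and Ccl7 and 0.44 for Cxcl9 and Ccl2, so the order of the pairs was not the same. With the log10 of total reads r in Mgmt-/- livers was -0.36 for Cxcl16, -0.32 for Cxcl9 and -0.31 for Cxcl1. Of 10094 genes, those most like Cxcl10 were Nampt (0.58), Cxcl9 (0.56), the immunoproteasome subunits Psmb8 (0.54) and Psmb9 (0.54), and Irgm2 (0.52), an interferon-induced GTPase. Those most like Ccl2 were Pycard (0.55), Hilpda (0.53), Psmd10 (0.53), Samsn1 (0.49) and Nip7 (0.48).

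**Figure D5:**
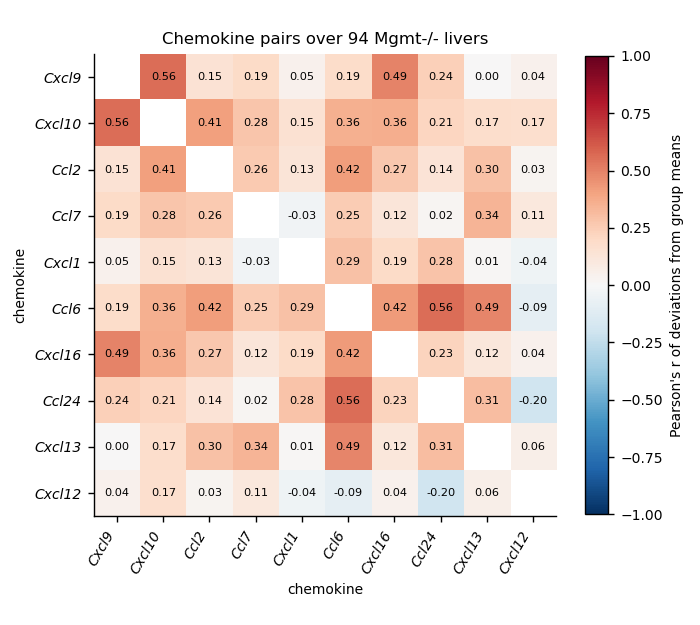
Pearson's r (colour and printed value) between pairs of the 10 chemokines (both axes) over 94 Mgmt-/- livers, on log2 values after each group's mean was subtracted. The pairs Cxcl9 with Cxcl10 and Ccl6 with Ccl24 were both at 0.56.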

How the data were processed

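RNA of WT and Mgmt-/- mouse livers was made into 3′ digital gene expression libraries with molecular identifiers. The authors aligned the reads with STAR to the mouse genome (GRCm38/mm10), used ESAT to count reads per gene, and scaled each genotype on its own with DESeq2 size factors. The deposited values are this normalized signal. Tool versions are not given in the sources used here. The labels name 214 samples, of which 213 had columns read here and 1 was not analysed here. The comparisons used 211 libraries (117 WT and 94 Mgmt-/-), since 2 were left out for kidney transcripts. In 209 columns 100% of the values were whole multiples of 1 step within 0.0001 reads, so that whole reads were recovered. Tests on reads, which are those by edgeR and DESeq2, left out 4 columns. On these reads edgeR called 912 genes higher and 708 lower on day 5 in Mgmt-/-, and 576 and 388 on day 1 in WT livers.

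Groups, sex and batch came from the labels. The comparison of NDMA with saline used limma 3.58.1 (trend and robust) in R 4.3.3 on log2(value + 1), with a minimum mean of 5. Time by treatment and sex by treatment terms came from limma, and genotype by treatment from edgeR 4.0.16 (TMM) on whole reads, each called at an adjusted p under 0.05. All p-values are two-sided and adjusted over all genes tested. Each test was tested on simulated data. There the sex term missed nearly all changed genes in groups of 8 or fewer. Python 3.11.15, pandas 2.3.3, numpy 2.4.6, scipy 1.17.1 and matplotlib 3.10.9 made tables and plots. GENCODE vM21 gave the positions of genes, and RefSeq the promoters.

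All members were named. From each list up to 4 genes called in most comparisons were named (some are not reported here), for marker lists with the most abundant gene, and the 5 genes most correlated with Cxcl10 and with Ccl2. Ccl8, Cxcr3, Cxcr6, Ccl9, Pdgfrb, C6, Cd163, Clec4f, Vsig4, Apoa1, Dnase1l3, Fcgr2b, Kdr, Lrat, Pecam1, Ltf, Csf1r, Col1a1 and markers at 0 were added after their values were seen. The members and lists were chosen with earlier results of these data known. Alternatives were other pseudocounts (0.5 or 5), filters (none, or a minimum mean of 20), no covariates, equal totals, edgeR, DESeq2 1.42.0, all libraries kept, libraries under 300000 reads or with mismatched sex genes left out, batches alone, and each replicate left out. Leaving out mismatched libraries within 1 batch, and keeping only batches that hold both genotypes, were chosen after seeing the data, as was leaving out single libraries that stood apart in the genotype and time terms.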

Additional observations from a re-analysis of the deposited data

Results flagged for a closer look

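The 10 members in each of 13 groups of 6 to 10 livers gave 130 sets of values, which share livers. In 13 of these sets 1 liver lay far from the others, where chance alone gives about 1 in 20. WT saline replicate D215004 of day 2 was highest for Cxcl9 (162), Cxcl10 (259) and Ccl2 (96.6). High single saline livers in Mgmt-/- mice were D389047 for Cxcl1 at day 2 (32.7), and D209003 for Cxcl1 (97.2) and D209028 for Ccl2 (19.6) at week 10. Ccl24 was high in NDMA replicate D389066 at Mgmt-/- day 5 (143) and low at Mgmt-/- week 10 in saline replicate D209001 (4.18) and NDMA replicate D209030 (1.70). Cxcl10 was lowest in Mgmt-/- NDMA replicate D209007 of week 10 (28.6). Values of 0 were found in WT NDMA replicates D215014 for Ccl2 and D202014 for Ccl7 at day 5 and D202020 for Cxcl16 at week 10.

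The response to NDMA differed between genotypes by the edgeR term, in log2 and larger in Mgmt-/-, for Ccl2 (2.65) and Cxcl10 (2.26) at day 2, for Ccl2 (1.90), Cxcl10 (2.19) and Cxcl9 (1.76) at day 5, and for Ccl2 (4.17), Ccl6 (1.55), Cxcl10 (2.29) and Cxcl16 (2.42) at week 10. It differed between times by the limma term for Ccl6 (-1.97) and Cxcl16 (-2.01) from day 5 to week 10 in WT, for Cxcl12 (0.95) and Cxcl9 (-3.05) over the same interval in Mgmt-/-, and for Ccl2 (-1.87), Ccl7 (-2.38) and Cxcl16 (-1.19) from week 10 to month 10 in Mgmt-/- livers. It differed between sexes for Ccl6 at month 10 in Mgmt-/- livers (2.97, male minus female). At the times of the genotype differences no library batch held both genotypes, so that batch and genotype cannot be told apart.

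In the 2 Mgmt-/- saline libraries of day 5 with kidney transcripts, which the comparisons do not use, Cxcl16 was at 33.8 (D389011) and 37.6 (D389017), above the 6 saline livers used, whose highest was 22.1.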

How the results depend on the processing

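No called chemokine value changed sign. Of 3970 values of single members under the alternatives, 3878 stayed on the same side of the threshold, 37 lost a call and 55 gained one. The number of members called in WT livers of day 1 was 7, and 0 in batch 200803Eng alone, with or without the libraries of mismatched sex genes. That batch held 10 livers. In WT livers of day 5 the number was 3, and 6 with edgeR, 7 with DESeq2 and 6 without libraries under 300000 reads. In Mgmt-/- livers it was 4 in week 10 and 7 with equal totals, and 5 in month 10 and 2 with a minimum mean of 20. The genotype term gave 2 members on day 2 and 4 with no filter, and 3 on day 5, 6 with no filter and 1 with all libraries kept. The time term gave 2 for week 10 against day 5 in WT, 1 with a pseudocount of 0.5 and 0 without covariates. In Mgmt-/- it gave 2 for these times and 4 with a pseudocount of 5 or all libraries kept, and 3 for month 10 against week 10 and 1 with a minimum mean of 20, without covariates or with all libraries kept. On day 5 with all libraries kept, limma did not call Ccl24 (2.01, adjusted p = 0.147) or Cxcl16 (0.44, adjusted p = 0.321) in Mgmt-/- livers. With a minimum mean of 20, members under that mean were not tested and so not counted. The cause of these changes was otherwise not tested.

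With each replicate left out in turn, the number of members called ranged, in order of time, from 7 to 7, 5 to 8, 2 to 6, 0 to 0 and 0 to 0 in WT and from 7 to 8, 9 to 9, 9 to 9, 4 to 5 and 5 to 5 in Mgmt-/- livers. Of the terms run without single libraries that stood apart, the time term of WT week 10 against day 5 gave 2 to 5 members, and the other genotype and time terms gave as many as with all libraries. No paired analysis was possible because the codes that number the mice occur once each. Depth limits the WT NDMA replicates D215006, D215014, D215022 and D215030, each under 300000 reads.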

Other observations

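In the 2 Mgmt-/- saline libraries with kidney transcripts, D389011 and D389017, Cxcl9 was at 1.06 and 0, Cxcl10 at 2.11 and 2.18, Ccl6 at 14.4 and 12.0 and Ccl24 at 0.704 and 0.545, all below the 6 saline livers used, while Cxcl12 was at 136 and 288. Mgmt-/- saline replicate D209090 of day 1 had the highest Cxcl9 (123), Cxcl10 (59.5), Ccl6 (165) and Ccl24 (152) of its group, with Ccl2 at 5.58 and Cdkn1a at 40.9.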
